A study of Mus musculus with 745 samples.

Results

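The cells described here were the brain endothelial cells with the strongest interferon response in a collection of 745 single cells. A score was computed for every cell as the mean of log2(CPM + 1), where CPM is the count scaled to a fixed total per cell, over 8 interferon-stimulated genes: Ifit1, Ifit3, Rsad2, Usp18, Oasl2, Iigp1, Isg15 and Ifi44. The 25 highest-scoring cells of each of 3 sets were taken, 75 cells in all (10.1% of 745), and are called interferon-high cells. They were compared with the other 670 cells. All cells were primary brain endothelial cells sorted by FACS from 3-month-old mice after dissociation of the tissue, with no treatment named. The sets carry the names Young1 (225 cells), Young2 (258 cells) and AY_Y3 (262 cells) in the sample titles. The strain, the sex, the sort markers and the meaning of a set (a mouse, pooled mice or a plate) are not stated in the labels. The spread between sets may therefore be technical.

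Type I interferons bind the receptor pair Ifnar1 and Ifnar2, and the kinases Jak1 and Tyk2 then activate a complex that holds Stat2 and Irf9 and binds the interferon-stimulated response element in the promoters of its targets. Type II interferon acts through Ifngr1 and Ifngr2, and its targets carry the gamma activated site. The induced genes include RNA-binding antiviral proteins, guanylate-binding and immunity-related GTPases, and the machinery of antigen presentation by MHC class I. Brain endothelium faces the blood, carries these receptors and is a known site of interferon responses. Irf7 is a transcription factor that is itself induced and maintains the response.

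Counts per cell ran from 52819 to 2421434. The median count was 757949 in interferon-high against 766277 in other cells of Young1, 801698 against 711961 in Young2, and 594226 against 398097 in AY_Y3. After each cell was thinned to 50000 counts, interferon-high cells had a median of 1612 genes with a count against 1563.5 in Young1, 2097 against 1657 in Young2 and 2282 against 1827 in AY_Y3. Mitochondrial transcripts took 3.45% of the counts of interferon-high cells against 3.73% in Young1, 3.51% against 4.11% in Young2 and 3.05% against 3.47% in AY_Y3. They were lower in each set, and their part in the results below was not tested. The endothelial identity of the interferon-high cells was checked on 14 general endothelial markers, which summed to between 18186 and 47190 CPM in each of the 75 cells, and none of the 14 was at 0 in any set. Neuronal markers summed to at most 41.5 CPM in any interferon-high cell, and 11 of 14 microglia or macrophage markers were at 0 in the interferon-high cells of each set. Single interferon-high cells reached 18698 CPM of pericyte, 6074 of smooth muscle, 2167 of astrocyte and 1936 of oligodendrocyte markers. Single other cells reached 41559, 30388, 9125 and 82274 CPM. Lymphocyte or neutrophil markers averaged 2.50, 0 and 31.0 CPM in interferon-high cells of Young1, Young2 and AY_Y3 against 1.29, 5.66 and 0.61 CPM.

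The score had no break at the boundary. In Young1 the highest cell reached 9.50, the lowest of the 25 scored 4.35 and the first cell outside 4.28. The corresponding values were 9.04, 4.54 and 4.37 in Young2, and 8.92, 5.09 and 4.76 in AY_Y3. The class is therefore the upper end of a continuous range, and the other cells had median scores of 1.19, 0.92 and 1.23. Interferon-high cells had a count for a median of 6, 6 and 7 of the 8 genes in Young1, Young2 and AY_Y3, and only 1, 2 and 5 of them had a count for all 8. Among the other cells the median was 1 gene in each set, and 30.0%, 36.1% and 24.1% had none of the 8.

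**Figure D1:**
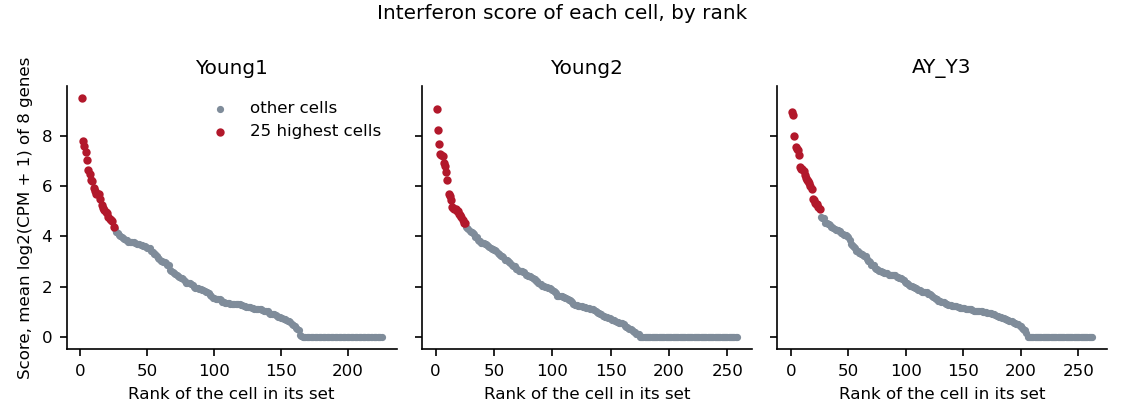
Score of each cell (vertical axis, mean log2(CPM + 1) of 8 genes) against its rank in its set (horizontal axis), 1 panel per set; red points are the 25 highest cells and grey points the other cells. The curve falls without a step at the boundary, at 4.35 in Young1, 4.54 in Young2 and 5.09 in AY_Y3.

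The 8 score genes chose these cells, so their levels are a description. Ifit1, which binds viral RNA lacking host cap marks, had a count in 73 of 75 interferon-high cells and in 161 of 670 other cells, with a median of 879 CPM and a maximum of 6141 CPM among the interferon-high cells. Oasl2, an oligoadenylate synthetase-like protein, had a count in 67 of 75 and 188 of 670 cells. Isg15, the ubiquitin-like protein that is attached to other proteins after interferon, had one in 63 of 75 and 170 of 670. For Rsad2 (viperin, an antiviral enzyme) the numbers were 61 and 111, and for Usp18, which removes Isg15 and dampens receptor signalling, 59 and 133. Ifit3 was found in 52 interferon-high and 98 other cells, and Ifi44 in 45 and 100. The least often detected was Iigp1, an immunity-related GTPase that acts on the vacuoles of intracellular pathogens, with 32 of 75 and 95 of 670 cells. Its mean level was 197 ± 28.5 CPM in interferon-high and 45.4 ± 9.95 CPM in other cells (SD, n = 3 sets).

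Each score gene was also left out in turn, the 75 cells were chosen again on the other 7 genes, and the left-out gene was tested in them. This was added after the data were seen. Ifit1 then stood at 639, 1030 and 776 CPM in the rechosen cells of Young1, Young2 and AY_Y3, against 243, 143 and 184 CPM in the other cells. It had a count in 78.7% of the rechosen cells and 26.1% of the others, and the groups did not overlap. Isg15 stood at 70.2, 66.7 and 36.5 CPM against 15.1, 15.5 and 13.6 CPM, with a count in 76.0% against 26.3% of cells. Rsad2 stood at 806, 156 and 253 CPM against 194, 82.6 and 123 CPM, so that the 2 groups overlapped between sets. edgeR's quasi-likelihood test on the summed counts called none of the 8, with adjusted p between 0.526 and 0.779 (Benjamini-Hochberg). limma on the mean log2 values called 7 of the 8, and Iigp1 did not pass (adjusted p = 0.318).

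For the other genes, the counts of the interferon-high cells and of the other cells were summed per set, which gave 6 sums, and edgeR's quasi-likelihood test with the set as a block was the main test. It called 0 of 11265 genes (0% at an adjusted p under 0.05), with 2 residual degrees of freedom and a smallest adjusted p of 0.719. At an unadjusted p under 0.05 it found 208 genes higher (1.85%) and 460 lower (4.08%), 668 in all where chance alone would give 563. limma, applied as an alternative to the mean log2(CPM + 1) over the cells of each set and class, called 18 genes higher (0.16% of genes tested) and 0 lower (0%). DESeq2 on the sums called 92 higher (0.817%) and 504 lower (4.47%). Of its 504 lower genes, 91.5% had a count in under 10% of all cells, against 38.4% of the genes tested, and 67 had no count in any interferon-high cell. The calls below are limma's unless another tool is named. They were absent from the main test, and limma itself called 0 genes without Young1, 0 without AY_Y3, 0 with 15 cells per set and 0 with no filter on low counts. The limma scale weighs how many cells have a gene as well as its level, and interferon-high cells of every set had more genes per cell. The part of that difference in the calls was not tested beyond thinning, with which limma called 36 genes, the 18 among them.

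All 18 genes were higher in the interferon-high cells of 3 of 3 sets, and 17 of them belong to the interferon lists. The exception is Rfk, riboflavin kinase, which makes flavin mononucleotide. For 17 of the 18, every interferon-high sum lay above every other sum, an ordering that 3.54% of all genes tested had upwards and 12.9% downwards. Rfk was the gene whose sums overlapped, with 516, 426 and 273 CPM in interferon-high cells of Young1, Young2 and AY_Y3 against 206, 275 and 179 CPM. The median interferon-high cell had a count for 13 of the 18 genes and the median other cell for 6, or 12 and 5 after thinning. At least 9 of the 18 were found in 85.3% of interferon-high and 26.3% of other cells. The 18 genes were called in the same contrast, so these shares describe them and test nothing.

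**Figure D2:**
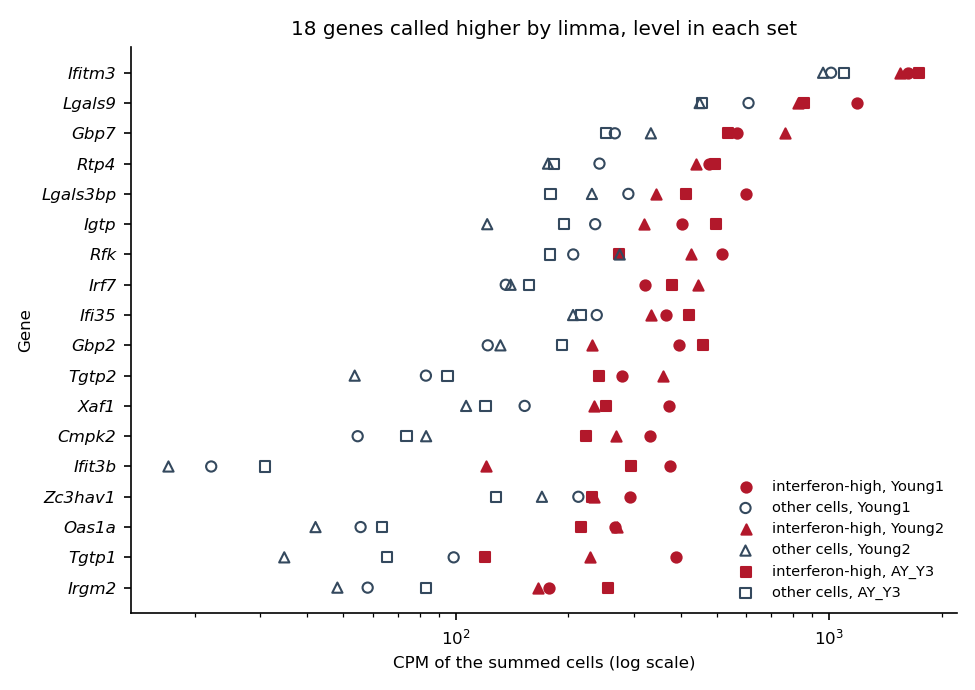
Level of the 18 genes called higher by limma (vertical axis) in CPM of the summed cells (horizontal axis, log scale); filled red symbols are interferon-high cells, open symbols other cells, and the symbol shape gives the set. For every gene except Rfk all 3 filled symbols lie to the right of all 3 open ones; edgeR's quasi-likelihood test called none of these genes.

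Among receptors and signalling genes, Irf7 was the gene that passed. It stood at 322, 445 and 379 CPM in the interferon-high cells of Young1, Young2 and AY_Y3 and at 136, 140 and 157 CPM in the other cells. The lowest interferon-high value was above the highest other value. The difference in mean log2(CPM + 1) was 3.90 ± 0.41 (SE; limma adjusted p = 0.00605), and the fitted fold change on the summed counts was 1.49 ± 0.19 on the log2 scale (edgeR adjusted p = 0.719). Irf7 had a count in 73.3% of interferon-high and 26.3% of other cells. Stat2 did not pass, with 119, 115 and 56.0 CPM against 37.7, 37.8 and 49.5 CPM (limma adjusted p = 0.226). The receptor chain Ifnar2 stood at 256, 228 and 260 CPM against 232, 264 and 298 CPM, and the classes overlapped. Ifnar1, Ifngr1, Ifngr2, Jak1 and Tyk2 did not pass either. Of the 21 receptor and signalling genes tested, 5 were higher in all 3 sets (23.8%, against 7.71% of all genes tested). In all 3 sets 1 was lower, where 2492 of the 11265 genes tested were. The median fitted log2 fold change was 0.18 against -0.24 over all genes tested. Of the 12 interferon ligand genes listed, 1 was among the symbols of the table, and it had too few counts to test.

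The interferon-inducible GTPases were the list that stood highest. These proteins, the guanylate-binding proteins (Gbp) and the immunity-related GTPases (Irgm, Igtp, Tgtp), attack membranes around intracellular pathogens. Of 15 tested, 12 were higher in all 3 sets (80.0%, against 7.71% of all genes tested), the same number had sums that did not overlap, and 6 were called. Their median fitted log2 fold change was 1.33. Gbp7 stood at 567, 760 and 535 CPM in Young1, Young2 and AY_Y3 against 267, 333 and 253 CPM (limma difference 3.24 ± 0.44, adjusted p = 0.0102; edgeR log2 fold change 1.22 ± 0.14, adjusted p = 0.719). It was detected in 77.3% of interferon-high and 48.2% of other cells. Every set of interferon-high cells was thus above every set of other cells.

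Irgm2 stood at 178, 166 and 255 CPM against 58.1, 48.2 and 83.4 CPM (limma difference 2.92 ± 0.39, adjusted p = 0.0102). Tgtp2 stood at 279, 358 and 242 CPM against 83.2, 53.6 and 95 CPM, with a limma difference of 2.91 ± 0.39 (adjusted p = 0.0102). Tgtp1, Igtp and Gbp2 were also called, with limma adjusted p between 0.0254 and 0.0342. Tgtp1 and Tgtp2 are near-identical copies, and the Gbp genes resemble each other, so the authors' counting may have split or shared their reads. Irgm1 did not pass although it stood at 412, 290 and 379 CPM against 168, 146 and 143 CPM (limma adjusted p = 0.180). Gbp4, Gbp6 and Gvin1 had overlapping sums. Gbp4, for example, was at 48.8, 149 and 87.6 CPM against 65.1, 39.4 and 58.4 CPM.

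Antiviral effectors made up the largest number of calls. Of 58 tested, 25 were higher in all 3 sets (43.1%, against 7.71% of all genes tested). In all 3 sets 2 were lower, where 2492 of the 11265 genes tested were. Non-overlapping higher sums were found for 19 (32.8%, against 3.54%). limma called 10 of the 58, against 0.16% of all genes tested, and the median fitted log2 fold change was 0.67. Oas1a, an oligoadenylate synthetase that triggers RNA decay, stood at 267, 271 and 216 CPM in Young1, Young2 and AY_Y3 against 55.6, 42.1 and 63.5 CPM. The classes lay far apart in every set, with a count in 60% of interferon-high and 15.7% of other cells (limma difference 3.48 ± 0.38, adjusted p = 0.00605; edgeR log2 fold change 2.33 ± 0.28, adjusted p = 0.719). Cmpk2, a mitochondrial nucleotide kinase and the chromosomal neighbour of Rsad2, stood at 331, 269 and 223 CPM against 54.6, 83.3 and 73.8 CPM (limma adjusted p = 0.01). Ifit3b reached the highest fitted fold change of the 18, 3.48 ± 0.35 on the log2 scale, with 374, 120 and 295 CPM against 22.2, 17 and 30.9 CPM. It is a near copy of the score gene Ifit3, so its reads may be shared in part with a gene that chose the cells. Of the interferon-high cells 30 had a count of both genes, 22 of Ifit3 only and 4 of Ifit3b only.

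The other called effectors differed in how widely they were expressed. Ifitm3, a membrane protein that blocks viral fusion, had a count in 98.7% of interferon-high and 93.1% of other cells, and stood at 1622, 1543 and 1743 CPM against 1011, 962 and 1094 CPM. It was present in most cells of both classes and higher in the interferon-high ones (limma difference 1.43 ± 0.23, adjusted p = 0.0372). Lgals9, the lectin galectin-9, stood at 1184, 824 and 854 CPM against 608, 450 and 457 CPM, with counts in 85.3% and 56.6% of cells (limma adjusted p = 0.0102). Xaf1, a protein that promotes cell death, stood at 372, 235 and 252 CPM against 153, 107 and 120 CPM (limma adjusted p = 0.0102). Rtp4, Lgals3bp, Ifi35 and the zinc finger antiviral protein Zc3hav1 were called as well, with limma adjusted p from 0.0102 to 0.0418. Bst2, or tetherin, which holds budding virus at the cell surface, did not pass, with 217, 276 and 239 CPM against 137, 124 and 162 CPM (limma adjusted p = 0.155). Slfn2 (adjusted p = 0.0847) and Trim30a (0.0719) also missed the threshold of limma's test.

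Promoter sequences of the genes above show how the response element is placed in genes that were high together. RefSeq promoters on build GRCm38.p6, from 250 bases before to 50 after the start, were searched on both strands for GAAANNGAAA, the core of the interferon-stimulated response element, which can overlap itself. Of all 32851 promoters 3.44% held it. It was in 4 of the 6 score genes with an entry (Ifit1, Ifit3, Rsad2 and Isg15), in 10 of 17 limma-called genes with an entry and in 10 of 11 GTPases tested that had one (90.9%). Among the antiviral effectors tested it was in 16 of 47 with an entry (34.0%). The gamma activated site core, TTCNNNGAA, which reads the same on both strands, was in 8.30% of all promoters, in 8 of the 17 called genes, in 7 of the 11 GTPases (63.6%), in 9 of the 47 effectors (19.1%) and in 0 of the 6 score genes. These are matches of letters and show no binding. The last 120 bases before the start are printed for 2 score genes, Ifit1 and Isg15, for 4 called genes and for Irf7, which was called and held no match; capitals mark the GAAANNGAAA core on either strand.
Ifit1 (chr19:34640769-34640888, plus strand): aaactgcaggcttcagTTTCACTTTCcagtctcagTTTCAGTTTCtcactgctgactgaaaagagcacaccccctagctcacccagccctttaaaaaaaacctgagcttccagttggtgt
Isg15 (chr4:156200819-156200938, minus strand): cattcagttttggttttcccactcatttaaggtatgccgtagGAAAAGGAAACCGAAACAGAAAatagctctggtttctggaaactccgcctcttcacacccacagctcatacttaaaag
Oas1a (chr5:120907526-120907645, minus strand): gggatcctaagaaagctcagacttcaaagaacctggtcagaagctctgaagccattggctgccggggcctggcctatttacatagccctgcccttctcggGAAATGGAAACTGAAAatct
Tgtp2 (chr11:49064213-49064332, minus strand): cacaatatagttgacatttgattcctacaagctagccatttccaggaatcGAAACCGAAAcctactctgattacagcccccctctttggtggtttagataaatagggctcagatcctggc
Irgm2 (chr11:58214857-58214976, plus strand): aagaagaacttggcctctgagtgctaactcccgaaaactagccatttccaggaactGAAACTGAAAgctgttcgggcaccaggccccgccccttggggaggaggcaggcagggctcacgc
Gbp7 (chr3:142530216-142530335, plus strand): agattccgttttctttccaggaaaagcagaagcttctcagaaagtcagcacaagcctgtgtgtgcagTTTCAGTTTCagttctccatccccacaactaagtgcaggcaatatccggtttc
Irf7 (chr7:141266425-141266544, minus strand): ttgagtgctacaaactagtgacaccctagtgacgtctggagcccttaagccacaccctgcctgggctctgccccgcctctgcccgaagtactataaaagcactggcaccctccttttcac
In Ifit1 the matches began 104 and 85 bases before the start, and in Isg15 3 overlapping ones began 78, 72 and 66 bases before it. Oas1a held a pair 20 and 14 bases before the start. Tgtp2, Irgm2 and Gbp7 held 1 each within 70 bases of it.

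By their medians, lists next to the antiviral genes stood closer to all genes than the GTPases and effectors did. Of 25 genes of MHC class I presentation, 7 were higher in all 3 sets (28.0%, against 7.71% of all genes tested). In all 3 sets 0 were lower, where 2492 of the 11265 genes tested were. Non-overlapping higher sums were found for 5 (20.0%, against 3.54%). The median fitted log2 fold change was 0.38, against -0.24 over all genes tested. limma and edgeR called 0 (5 at an unadjusted edgeR p under 0.05), and DESeq2 called 3. B2m, the light chain of MHC class I, stood at 2523, 2274 and 2395 CPM in interferon-high cells against 2339, 1746 and 1867 CPM (limma adjusted p = 0.437). It was abundant in both classes, and the sums overlapped. Tap1, which carries peptides into the endoplasmic reticulum, was at 209, 29.7 and 85.6 CPM against 41.0, 31.4 and 33.4 CPM, so that Young2 went against the other sets. Psmb8, a subunit of the immunoproteasome, was at 316, 237 and 261 CPM against 211, 179 and 196 CPM, without overlap (limma adjusted p = 0.337).

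RNA and DNA sensors were mixed. Of 14 tested, 3 were higher in all 3 sets (21.4%, against 7.71% of all genes tested). Another 4 were lower in all 3, as were 2492 of the 11265 genes tested. limma and edgeR called 0 (3 at an unadjusted edgeR p under 0.05), and DESeq2 called 1 higher. The 3 that were higher in all sets were Ifih1, Ddx58 and Eif2ak2, all of which bind double-stranded RNA. Ifih1 stood at 258, 162 and 207 CPM against 83.6, 77.5 and 68.6 CPM, with no overlap (edgeR log2 fold change 1.53 ± 0.24, adjusted p = 0.719; limma adjusted p = 0.128). Ddx58 was at 108, 69.9 and 114 CPM against 36.7, 48.9 and 38.6 CPM. Tmem173, the adaptor of DNA sensing also called STING, had a count in 8% of interferon-high and 4.48% of other cells.

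limma and edgeR called 0 of the NF-kB, chemokine and adhesion genes (2 at an unadjusted edgeR p under 0.05), and DESeq2 called Vcam1 higher and Lrg1 lower. Of 11 NF-kB targets 1 was higher in all 3 sets (9.09%, against 7.71% of all genes tested), with a median of -0.33. Nfkbia, the inhibitor of NF-kB, stood at 1362, 1207 and 1748 CPM against 1572, 1630 and 1995 CPM (limma adjusted p = 0.735). It was below the other cells in each set, and the groups overlapped across sets. Of 8 chemokine and leukocyte adhesion genes tested, Vcam1, the ligand of integrins on white blood cells, was the 1 that was higher in every set, with 87.4, 293 and 352 CPM against 36.5, 160 and 160 CPM. It had a count in 21.3% of interferon-high and 10.3% of other cells and did not pass (limma adjusted p = 0.437, edgeR adjusted p = 0.719).

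**Figure D3:**
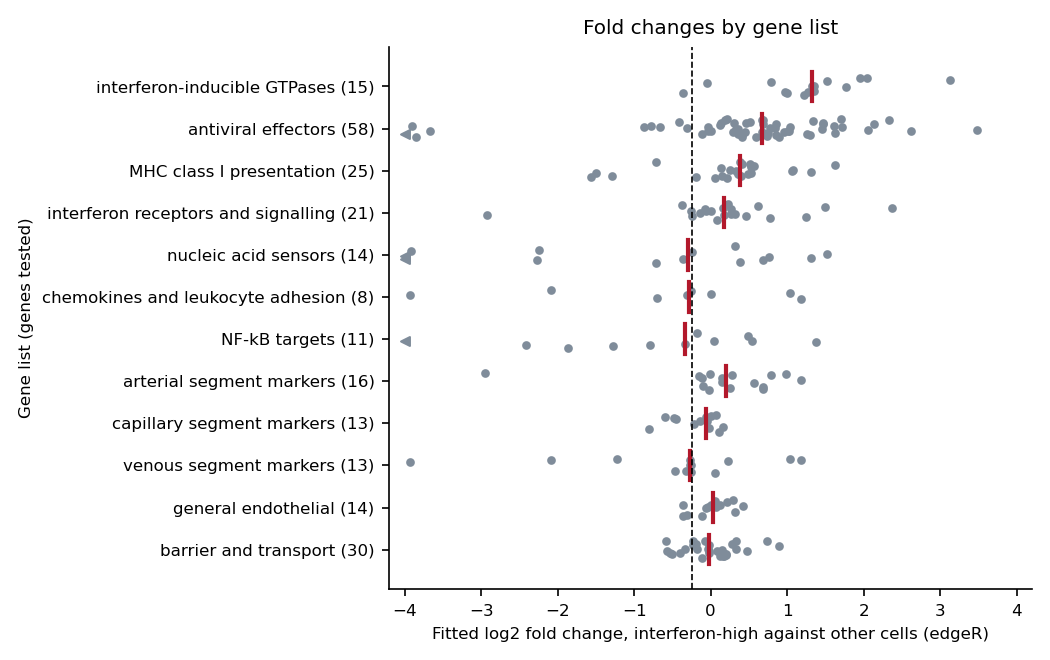
Fitted log2 fold change (horizontal axis, edgeR, interferon-high against other cells) of each tested gene in 12 lists (vertical axis, number of genes tested in brackets); red bars are list medians, the dashed line is the median of all genes, -0.24, and arrowheads mark 4 genes below -4. The medians run from 1.33 for the GTPases to -0.33 for the NF-kB targets.

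A second score was computed from 72 interferon genes outside the 8 that had a count in at least 10% of all cells. It had a median of 3.44, 3.68 and 4.29 in the interferon-high cells of Young1, Young2 and AY_Y3 and of 2.14, 2.13 and 2.44 in the other cells. Of the 75 interferon-high cells, 37 (49.3%) were among the 25 highest of their set on this second score, where they made up 10.1% of all cells, and 71 (94.7%) lay above the median over all sets. The numbers were 36 and 70 after thinning. Single cells departed from this. The highest cell of Young1, at position J4, had a score of 9.50 and ranked 3 of 225 on the second score. The cell at G7 of the same set scored 7.58 with 7 of the 8 genes but ranked 132. In AY_Y3 the cell at G18 scored 8.81 with all 8 genes and ranked 81 of 262. The 2 scores share cells and depth, so their relation is a description.

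**Figure D4:**
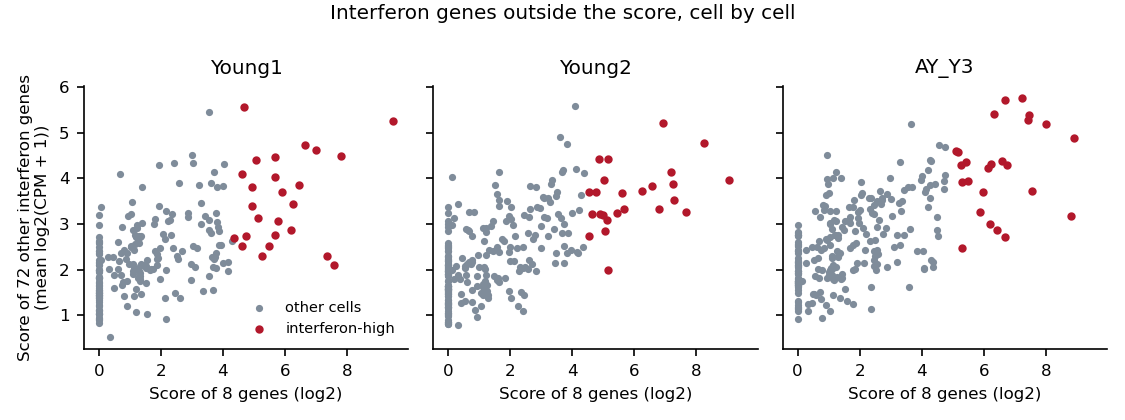
Score of 72 interferon genes outside the 8 (vertical axis, mean log2(CPM + 1)) against the score of 8 genes (horizontal axis) for each cell, 1 panel per set; red points are interferon-high cells and grey points other cells. Most red points lie above the median of the other cells, 2.23, and some, such as G7 of Young1 at 2.11, do not.

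Vessel segments were read from marker lists. Arteries and their finer branches express genes such as Hey1, Sema3g and Sox17, capillaries Car4, Mfsd2a and Rgcc, and veins Slc38a5 and Nr2f2. Each cell was given a score for each list, with every gene scaled within its set, and counted under the list that scored highest. Interferon-high cells fell under all 3 lists. The arterial score was highest in 40%, 48.0% and 44.0% of the interferon-high cells of Young1, Young2 and AY_Y3, against 31.5%, 31.3% and 26.2% of the other cells. The capillary score was highest in 24%, 28.0% and 36.0% against 47.5%, 51.1% and 47.7%. Both orders held in each set without overlap, whereas the venous share, 36.0%, 24% and 20.0% against 21%, 17.6% and 26.2%, turned round in AY_Y3. The share did not follow the marker level in Young1, where the 16 arterial markers summed to a mean of 1475 CPM in interferon-high cells against 1912 CPM. The sums were 2055 against 1832 CPM in Young2 and 3834 against 1969 CPM in AY_Y3.

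The differences were 14.3 ± 5.09 percentage points for the arterial, -19.4 ± 6.70 for the capillary and 5.08 ± 10.6 for the venous share (SD, n = 3 sets). No test was run on these shares: an exact two-sided permutation test over 3 sets cannot give a p below 0.25. Put the other way, 33 of 231 cells under the arterial list (14.3%), 22 of 349 under the capillary list (6.30%) and 20 of 165 under the venous list (12.1%) were interferon-high. Cells under the capillary list had a median of 1584 genes with a count after thinning, against 1754 under the arterial and 2053 under the venous list, and the part of gene number in these shares was not tested. With 15 cells per set the arterial share in Young1 was 33.3% against 32.4% of the other cells. With 40 cells per set the shares were 37.5% arterial and 39.2% capillary, and with thinned counts 40% and 33.3%. Over all sets the venous score was highest in 26.7% of interferon-high and 21.6% of other cells. Without Vcam1, Icam1, Lrg1 and Lcn2 in the venous list these shares were 25.3% and 26.3%. The venous share was then higher in interferon-high cells of Young1 only. The arterial shares did not change, and the capillary shares were 30.7% and 44.2%. The segment scores are ranges, and 5 of 75 interferon-high and 83 of 670 other cells lay within 0.1 of the next list. In 7 of 75 interferon-high cells, 1 of them counted as arterial, all 3 segment scores were below 0. The same held in 84 of 670 other cells.

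**Figure D5:**
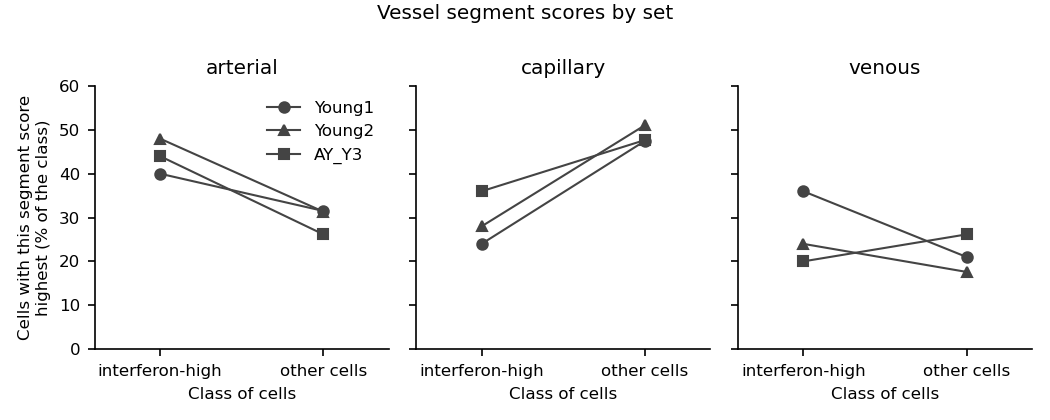
Share of cells (vertical axis, percent of the class) whose arterial, capillary or venous score was the highest (panels), in interferon-high and other cells; each line joins the 2 classes of 1 set. The arterial share is higher and the capillary share lower in the interferon-high cells of all 3 sets, and the venous lines cross.

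limma and edgeR called 0 of the segment markers (5 at an unadjusted edgeR p under 0.05), and DESeq2 called Car4 and Lrg1 lower and Vcam1 higher. Of the 16 arterial genes 1 was higher in all 3 sets (6.25%, against 7.71% of all genes tested). This was Hey1, a Notch target, with 249, 180 and 206 CPM against 146, 133 and 112 CPM and no overlap (limma adjusted p = 0.437). The summed counts of the rest varied by set. Gkn3, an arterial marker, stood at 27.5, 41.9 and 223 CPM against 39.1, 27.8 and 35.4 CPM, with AY_Y3 alone far apart. Mgp, a matrix protein of larger arteries, was likewise at 1596 CPM in AY_Y3 against 547 CPM, but at 324 and 234 CPM against 241 and 345 CPM in Young1 and Young2. Gkn3 had a count in 8%, 24% and 32% of interferon-high cells against 5%, 8.58% and 6.75% of other cells. Over all sets each arterial marker had a count in a larger share of interferon-high cells. In Young1 some, such as Bmx (8% against 14.5%), went the other way. The part of gene number per cell in these shares was not tested. Of 13 capillary genes 0 were higher and 5 lower in all 3 sets, where 2492 of the 11265 genes tested were lower in all 3. Car4, a carbonic anhydrase of the capillary surface, was at 1584, 1066 and 1325 CPM against 2071, 1834 and 1832 CPM, with a count in 58.7% against 71.6% of cells (limma adjusted p = 0.264). Rgcc, a cell cycle regulator, was at 298, 242 and 300 CPM against 470, 396 and 487 CPM. The summed counts of both were lower in each set without overlap, at unadjusted edgeR p of 0.0149 and 0.00866. Unlike Car4, Rgcc had a count in about the same share of both classes, 69.3% of interferon-high and 68.5% of other cells. The venous markers Ackr1, Selp and Plvap had a count in 0 of the 75 cells, which allows a share of up to 4% from counting error alone. They were found in 3, 3 and 5 of the 670, shares below that limit, so no difference was detectable.

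General endothelial and barrier genes had median fitted log2 fold changes of 0.03 over 14 genes and -0.02 over 30, against -0.24 over all genes tested. Of the 14, 3 were higher in all 3 sets (21.4%) and 4 lower. Of the 30, 5 were higher (16.7%) and 5 lower. Over all genes tested 7.71% were higher and 2492 of 11265 lower. At an unadjusted edgeR p under 0.05, 3 of the 14 and 4 of the 30 were higher, against 1.85% of all genes tested, and 0 lower. Cldn5, the main claudin of the barrier's tight junctions, stood at 3410, 2946 and 3844 CPM against 3511, 3040 and 3890 CPM. Slc2a1, the glucose transporter, was at 9461, 9364 and 13257 CPM against 8070, 8597 and 10515 CPM, higher in each set but overlapping across sets (limma adjusted p = 0.122). DESeq2 called 3 of the 14 endothelial and 4 of the 30 barrier genes higher, against 0.817% of all genes tested. limma and edgeR called 0 of either at the adjusted threshold.

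Pericytes wrap brain capillaries and their transcripts can come along with an endothelial cell. The 10 pericyte markers summed to a mean of 1178, 265 and 180 CPM in the interferon-high cells of Young1, Young2 and AY_Y3 and to 1400, 1358 and 1235 CPM in the other cells, and 8 of the 10 were lower in all 3 sets. Over all genes tested, 2492 of 11265 were lower in all 3 sets. DESeq2 called 7 of the 10 lower, against 4.47% of all genes tested, while edgeR and limma called 0 (4 at an unadjusted edgeR p under 0.05). It also called 2 of 4 tested astrocyte and 2 of 4 tested oligodendrocyte markers lower. The median cell of either class had 0 CPM of pericyte markers in each set. In Young1 7 interferon-high cells exceeded 1000 CPM and 1 reached 18698 CPM. Cells over 1000 CPM were 28.0% of interferon-high against 17% of other cells in Young1. The shares were 8% against 18.5% in Young2 and 4% against 13.9% in AY_Y3, so Young1 went the other way. In interferon-high cells 1 of the 10 markers was at 0 in Young1, against 7 and 6 in Young2 and AY_Y3. The other cells are more numerous, so these zeros alone show no difference. Without the 39 cells highest in markers of other types, 2 of which were interferon-high, limma called 14 genes, all among the 18. Fewer cells with a transcript and less transcript per cell are mixed in every summed value here.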

How the data were processed

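The authors deposited whole-number read counts per gene symbol for 745 cells, with no normalization (20607 symbols, of which 708 had no count). Per the submitters' processing notes, Bowtie 0.12.2 and the builds mm8 and mm10 are named, with no role given to either build. Counting tool, annotation and strand setting: not given in the sources used here, so overlapping genes and close copies (Ifit3 and Ifit3b, Tgtp1 and Tgtp2, Oas1a and its relatives, Gbp and H2 genes) are uncertain. No molecular identifiers are named, so intervals and limits cover counting error only.

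From the counts, CPM and the score were computed per cell with Python 3.11.15, numpy 2.4.6 and pandas 2.3.3. Cells are not replicates, so counts were summed per set and class into 6 sums and tested with edgeR 4.0.16 (quasi-likelihood, TMM, R 4.3.3), with the set as a block because both classes came from each set and Benjamini-Hochberg adjustment at 0.05 over all 11265 genes. These passed edgeR's default filter with counts in 2% of cells or more, without the 8 score genes. The design left 2 residual degrees of freedom. Alternatives included DESeq2 1.42.0 on the sums and limma 3.58.1 on mean log2(CPM + 1), pseudocount 1. Further limma settings, a filter at 10% of cells and the tests of left-out score genes were added after it was seen that limma called genes and edgeR did not. edgeR and DESeq2 were also run on sums simulated from edgeR's fit, and limma on values simulated in another way. The 3 tools were therefore not compared on like data. DESeq2 called some genes that had not been changed. Its calls here may therefore include such genes.

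Named genes are the score genes, up to 15 called genes with the largest rise and 10 with the largest fall that reach 10 CPM and moved the same way in 3 sets, and up to 4 genes of each list with others needed to say what did not pass. Since the main test called none, limma's 18 calls are named instead, a choice made after the data were seen. Of 410 list genes, 370 matched a symbol. Members and lists were chosen with earlier results of these data known. No cells were left out and no doublet caller was run. P-values weigh a difference against the spread between sets. edgeR and limma estimate that spread for a gene partly from the other genes. For edgeR this added a median of 2.93 degrees of freedom. The number added for limma was not recorded and may differ. The p-values, limma's included, therefore do not rest on a gene's own spread over 3 sets alone. Promoters came from RefSeq, matched by symbol. One listed gene is not reported here.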

Additional observations from a re-analysis of the deposited data

How the results depend on the processing

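edgeR's quasi-likelihood test called 0 genes in every setting tried: no filter on low counts, a 10% filter, 15 or 40 cells per set, the score without Ifi44, thinned counts, other comparison cells, cells of other types left out, each set left out in turn, and no replicate block. With no replicate block limma called 2 genes. DESeq2 called 596 genes, 31 of them among 135 tested interferon list genes, and limma 18, with 17 of that list. limma called 0 genes with no filter, 0 with 15 cells per set, 36 with thinned counts, and between 0 and 19 when each set was left out (0 without Young1, 0 without AY_Y3, 19 without Young2, 15 of them among the 18). It called 22 with 40 cells per set (17 of the 18), 19 with the score without Ifi44 (16 of the 18), 20 without the 25 cells just below the boundary and 18 with the 10% filter. Leaving a set out leaves fewer samples; the cause of the other losses was not tested. The limma adjusted p of Irf7 ran from 5.26e-06 to 0.382 over these settings. The median over all genes was -0.24 on the edgeR scale and 0.13 on the limma scale. At 40 cells per set the arterial share moved to 37.5% and the capillary share to 39.17%. No fold change of the 18 genes reversed in any of 252 pairs of gene and setting. The 18 were picked as higher in the same contrast and the settings reuse its cells, so this is a description and tests nothing. Limits: the sets' nature is unknown, 3 sets allow no exact permutation p below 0.25 for a share, and genes with few counts carry wide errors.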

Other observations

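Genes outside the lists also stood apart in the sums and were picked after their values were seen. Rasd1, a small GTPase of the Ras family induced by glucocorticoids, stood at 424, 289 and 599 CPM in interferon-high cells of Young1, Young2 and AY_Y3 against 227, 178 and 266 CPM. Igfbp3, a carrier of insulin-like growth factors, stood at 177, 202 and 202 CPM against 87.0, 50.3 and 55.4 CPM, with no overlap. Neither passed edgeR's quasi-likelihood test (adjusted p = 0.719) or limma (adjusted p = 0.186 and 0.2), and DESeq2 called both (adjusted p = 0.000378 and 0.000489).

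Immediate early genes, which respond within minutes to stimuli such as tissue dissociation, were also read as a list. Of 17 tested, 2 were higher and 6 lower in all 3 sets (869 and 2492 of the 11265 genes tested). At an unadjusted edgeR p under 0.05 there were 3, and edgeR and limma called 0. DESeq2 called 2 of the 17 lower, against 4.47% of all genes tested, and 0 higher. Egr1 stood at 17.5, 5.75 and 8.54 CPM in interferon-high cells against 133, 84.1 and 19.5 CPM, and DESeq2 called it lower (adjusted p = 0.0164). It had a count in 10.7% of interferon-high and 8.36% of other cells, and the limma difference was -0.04 (adjusted p = 0.969), so the lower sums did not come with fewer cells that had a count. Btg2, an antiproliferative gene of the same list, was at 874, 534 and 315 CPM against 708, 400 and 259 CPM, higher in each set while the sets differed more from each other than the classes did.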
